A study of Drosophila simulans with 12 samples.

Results

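The vacuolar proton pump (V-ATPase) is a rotary enzyme of membranes, and its transcripts were followed here in sterile and fertile introgression males of Drosophila simulans. Members were all probe sets, groups of short array probes read together, whose single gene symbol in the platform annotation starts with Vha. That rule found 32 of 18769 probe sets (31 genes) on the array design used for testis, and 32 of 13966 probe sets (29 genes, all also on the testis design) on the design used for abdomen. In the sterile line, males carried a D. mauritiana segment of the X chromosome with the S variant at the OdsH locus. In the fertile line, the D. mauritiana segment carried the F variant. Both lines shared the D. simulans background and, per the series design, differed in about 3 Kb that holds exons 3 to 4 of the homeobox gene OdsH. The males were 3 to 4 days old, and on average 150 were dissected for testis RNA and 50 for abdomen RNA. Each line and tissue had 3 RNA extractions with 1 array each, which gave 4 groups and 12 arrays. Each condition was 1 line. The labels do not tell whether the extractions were of separately raised flies, so the spread behind each p-value, that between arrays of a group, may be technical.

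The pump has a cytosolic sector, V1, which hydrolyses ATP, and a membrane sector, V0, which carries protons across the membrane. It acidifies lysosomes, endosomes and secretory vesicles, and in insect epithelia such as the Malpighian tubule it sits in the plasma membrane and powers ion transport. In Drosophila most subunits are encoded by several paralogs. In D. melanogaster, 1 paralog of each subunit is abundant in epithelia and is called general here, while many of the other paralogs are known for transcripts that are mostly found in testis. The comparison asks whether the general and the other paralogs of a subunit differed in the same way between sterile and fertile males.

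Values are array intensities on a linear scale, fold changes are sterile over fertile on the log2(intensity + 16) scale, and a call is an adjusted p under 0.05 from limma with Benjamini-Hochberg adjustment over all tested probe sets of the tissue. The plus-minus value of an intensity is the SD (n = 3 arrays) and that of a fold change its standard error. In testis 28 of the 32 members (27 genes) were tested, because the authors had called them present on every array of one line or of both. Of these, Vha16-5 passed through the sterile line only, with 66% of its fertile arrays called present. Residual SDs of log2 values had a median of 0.05 in testis and 0.30 in abdomen. Array medians were 212 to 216 in sterile testis and 219 to 222 in fertile testis, and the median fold change of all tested testis probe sets was -0.04. Centring arrays on their medians, or quantile normalization, moved that median to 0.01. Of the testis markers, 15 of 17 were called present on all arrays of both lines, and the summed intensity of the 17 was 84055 to 85308 in sterile testis and 84976 to 85593 in fertile testis. Of the 15 tested, 4 were lower and 3 higher in the sterile line, where 37.8% and 22.6% of all tested probe sets were. The sperm tail gene relative djl (-0.51) and the meiotic arrest gene aly (-0.18) were the lowest. With median centring 2 of the 15 were lower and 5 higher, and after quantile normalization 3 were lower and 3 higher. Of all 9927 tested probe sets, 2941 were lower and 2941 higher with median centring. After quantile normalization 2959 of them were lower and 3028 higher.

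In testis the general paralogs were lower in the sterile line in all but 1 case, while the other paralogs went in both directions. Of the 13 general probe sets tested, 12 were called lower and 0 higher, covering 11 of 12 genes, with a median log2 fold change of -0.20 and a range of -0.66 to -0.02. Of the 14 other paralogs tested, 6 were called higher and 4 lower, with a median of 0.01 and a range of -0.33 to 0.30. Calls were common in this tissue: of all tested probe sets, 60.4% passed, 22.6% being higher and 37.8% lower, and 64.3% had sterile arrays that did not overlap the fertile ones. Over all 28 tested members 17 were called lower and 6 higher, with a median of -0.13. With arrays centred on their medians the general probe sets had 12 lower calls and a median of -0.16, and after quantile normalization 12 lower calls and a median of -0.17. The other paralogs then had 6 higher and 3 lower calls with a median of 0.05, and 7 higher and 2 lower calls with a median of 0.08. Of all 9927 tested probe sets, 2941 were higher and 2941 lower with median centring. After quantile normalization 3028 of them were higher and 2959 lower. Since the tissue was measured in bulk, fewer cells of a type and less RNA per cell cannot be told apart.

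**Figure D1:**
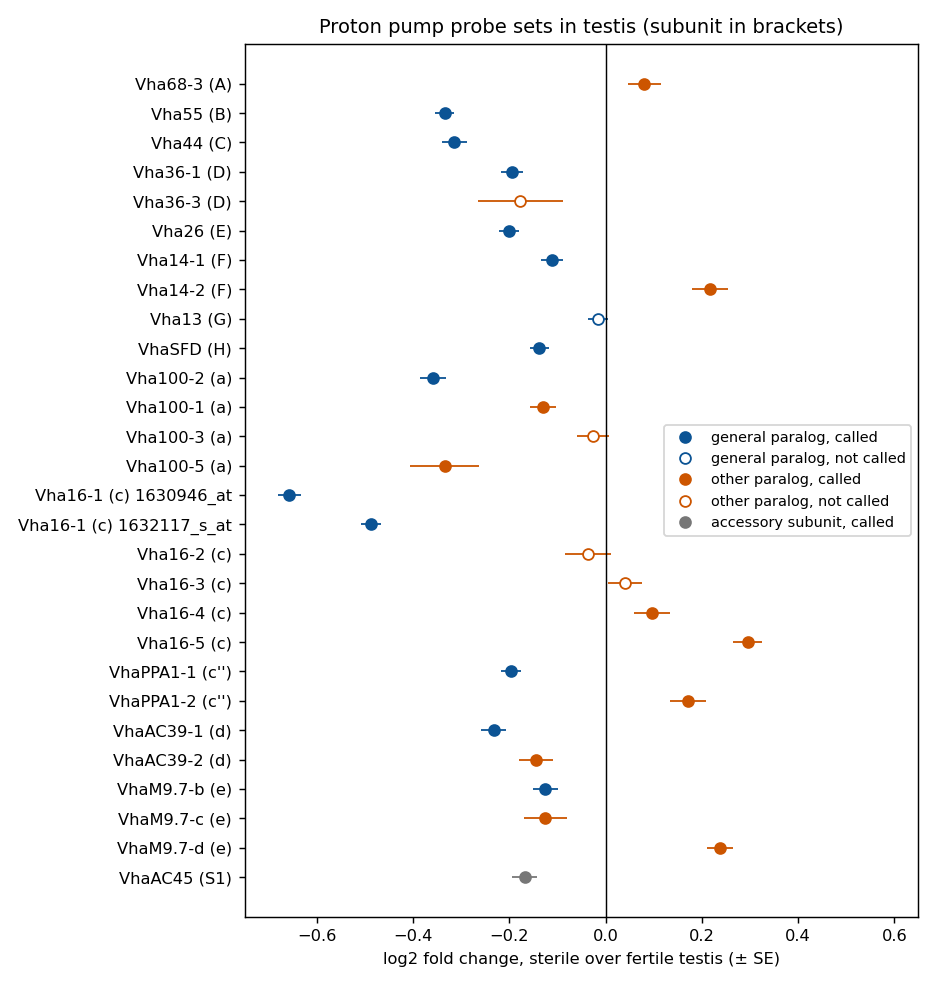
Log2 fold change of sterile over fertile testis (x axis) for the 28 tested pump probe sets (y axis, ordered by subunit), as fitted value ± standard error from 3 arrays per line; filled points passed an adjusted p of 0.05. General paralogs (blue) lie left of 0, down to -0.66 for Vha16-1 (Vha13, not called, was at 0.03 and 0.02 with median centring and quantile normalization), whereas other paralogs (orange) lie between -0.33 and 0.30.

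Among the subunits of the ATP-hydrolysing sector, 6 of 7 general genes were lower in sterile testis, with a median of -0.19 over the 7. Vha55 encodes subunit B, which forms the catalytic ring together with subunit A. Its intensity was 3207, 3292 and 3253 in sterile testis, against 4108, 4059 and 4143 in fertile testis. The groups lay far apart relative to their spread, and the log2 fold change was -0.33 ± 0.02 (limma adjusted p = 3.73e-10). Vha44 encodes subunit C, which joins V1 to V0 and is released when the pump is taken apart. It had 1564, 1564 and 1552 units in sterile testis, against 1890, 1984 and 1957 units in fertile testis, a log2 fold change of -0.31 ± 0.03 (limma adjusted p = 2.2e-08). All sterile arrays were below all fertile arrays for Vha44.

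The remaining general V1 genes changed less. Vha26 (subunit E, a peripheral stalk) had a log2 fold change of -0.20 ± 0.02 and Vha36-1 (subunit D, the central shaft) one of -0.19 ± 0.02. VhaSFD (subunit H, which links V1 to V0) had -0.14 ± 0.02 and Vha14-1 (subunit F, also in the central shaft) -0.11 ± 0.02. These 4 were called lower, with the sterile arrays below the fertile ones in each. Vha13 (subunit G, the partner of E in the stalks) was not called: it had 4171, 4352 and 4233 units in sterile testis, against 4307, 4353 and 4233 units in fertile testis. The arrays of the 2 lines overlapped, and the log2 fold change was -0.02 ± 0.02 (limma adjusted p = 0.541).

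All 6 general probe sets of the membrane sector were lower in sterile testis, with a median of -0.30. Vha16-1 encodes subunit c, the proteolipid of the rotating ring, and had the largest fall of all 28 tested members. The probe set with the larger fall had 2252, 2275 and 2183 units in sterile testis, against 3493, 3480 and 3637 units in fertile testis. The other, of a type that can detect several transcripts, had 2546, 2539 and 2545 units in sterile testis, against 3531, 3574 and 3615 units in fertile testis. Both fell without overlap between lines, with log2 fold changes of -0.66 ± 0.02 and -0.49 ± 0.02 (limma adjusted p = 8.79e-13 and 4.31e-12). Vha100-2 encodes an isoform of subunit a, which holds the paths by which protons enter and leave the ring and sets where the pump is placed. It had 2008, 2128 and 2020 units in sterile testis, against 2629, 2698 and 2583 units in fertile testis, and fell by 0.36 ± 0.03 on the log2 scale (limma adjusted p = 6.59e-09).

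VhaPPA1-1 encodes subunit c'', another kind of proteolipid in the ring. Its intensity was 2818, 2745 and 2782 in sterile testis, against 3154, 3216 and 3197 in fertile testis, with a log2 fold change of -0.20 ± 0.02 (limma adjusted p = 5.41e-07). The sterile arrays again all lay below the fertile ones. VhaAC39-1 (subunit d, which couples the shaft to the ring) had -0.23 ± 0.03, and VhaM9.7-b (the small subunit e) had -0.13 ± 0.03. Both were called lower. The accessory subunit gene VhaAC45, whose product helps place the pump, was also called lower at -0.17 ± 0.03.

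The members that were higher in sterile testis were all other paralogs. The 4 largest are given with their arrays and were chosen after their values were seen. Vha16-5, a further proteolipid gene that had passed the presence filter through the sterile line alone, had 1412, 1471 and 1476 units in sterile testis, against 1214, 1158 and 1172 units in fertile testis, a log2 fold change of 0.30 ± 0.03 (limma adjusted p = 2.68e-07, and 8.62e-06 with no filter). VhaM9.7-d (subunit e) had 1499, 1476 and 1459 units in sterile testis, against 1240, 1281 and 1233 units in fertile testis, a log2 fold change of 0.24 ± 0.03 (limma adjusted p = 1.44e-06). In both genes every sterile array was above every fertile array.

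Vha14-2, the other gene for subunit F, had 568, 574 and 588 units in sterile testis, against 488, 496 and 498 units in fertile testis, and rose by 0.22 ± 0.04 on the log2 scale (limma adjusted p = 0.000117). VhaPPA1-2, the other gene for subunit c'', had 918, 856 and 916 units in sterile testis, against 764, 809 and 812 units in fertile testis, and rose by 0.17 ± 0.04 (limma adjusted p = 0.000903). Neither showed overlap between the lines. Vha16-4 (subunit c, 0.10 ± 0.04, limma adjusted p = 0.0353) and Vha68-3 (subunit A, 0.08 ± 0.03, limma adjusted p = 0.0478) were also called higher, but the arrays of the 2 lines overlapped. Each call was lost in 7 of 14 alternatives, including no intensity trend, no filter and a filter on the median level. Leaving out single arrays gave up to an adjusted p of 0.178 without sterile array C for Vha16-4 and 0.238 without fertile array A for Vha68-3.

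Not every other paralog was higher. Vha100-5, an isoform of subunit a, had 194, 177 and 157 units in sterile testis, against 227, 224 and 226 units in fertile testis, and fell by 0.33 ± 0.07 on the log2 scale (limma adjusted p = 0.000691). Its sterile arrays were all lower and spread more widely than its fertile ones. Vha100-1 (subunit a, -0.13 ± 0.03), VhaAC39-2 (subunit d, -0.14 ± 0.04) and VhaM9.7-c (subunit e, -0.13 ± 0.04) were called lower as well. The VhaM9.7-c call depended on scaling (limma adjusted p = 0.152 with median centring and 0.288 with quantile normalization), and so did that of VhaAC39-2 (limma adjusted p = 0.106 with quantile normalization). Vha100-3, Vha16-2, Vha16-3 and Vha36-3 were not called, with log2 fold changes of -0.03 ± 0.03, -0.04 ± 0.05, 0.04 ± 0.04 and -0.18 ± 0.09.

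**Figure D2:**
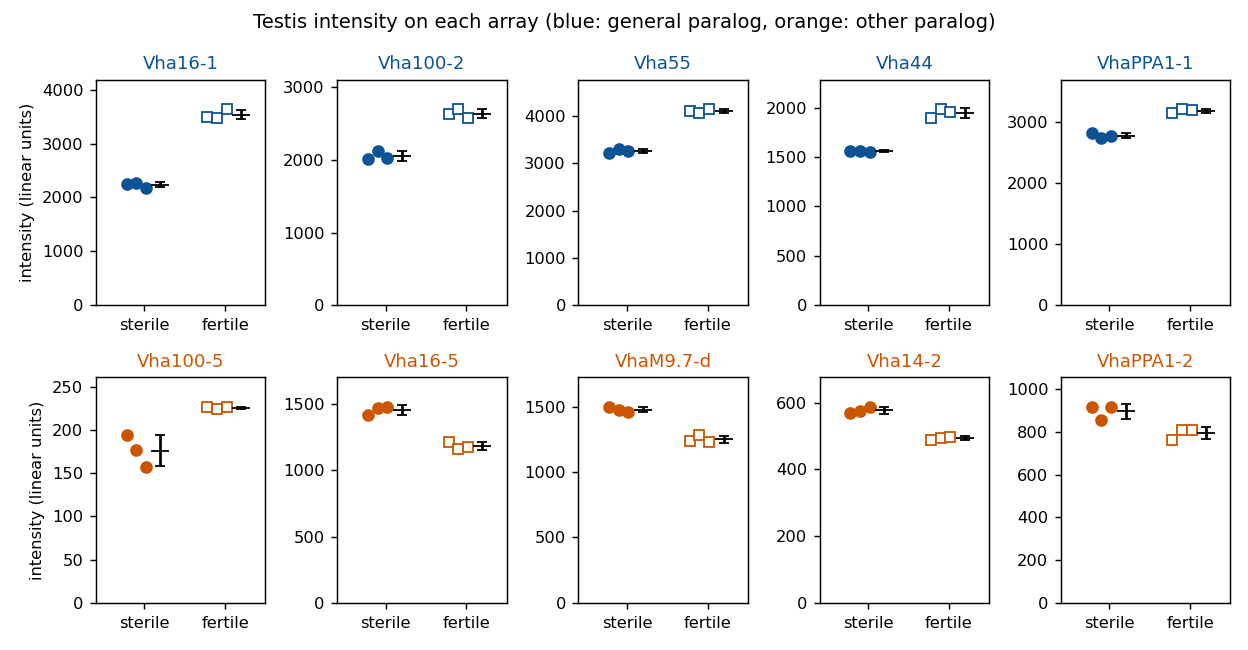
Intensity on each testis array (y axis, linear units from 0) for 10 pump genes in sterile (left in each panel) and fertile males (right), with 3 arrays per line as points beside their mean ± SD; Vha16-1 is shown by its probe set with the larger fall. The sterile arrays lie below the fertile ones in the general genes (blue) and Vha100-5, and above them for Vha16-5, VhaM9.7-d, Vha14-2 and VhaPPA1-2.

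The testis design held 4 members that were not tested because neither line had them present on all arrays. Vha36-2 (subunit D) had 906, 924 and 881 units in sterile testis, against 1059, 1057 and 1069 units in fertile testis, with 66% of arrays called present in each line. VhaAC45RP, a relative of the accessory subunit gene, had 252, 286 and 280.04 units in sterile testis, against 324, 339 and 299 units in fertile testis, and was called absent on every array. Vha100-4 (73.0 to 103 units in sterile and 93.8 to 115 units in fertile testis) and VhaM9.7-a (64.4 to 78.7 units in sterile and 55.5 to 75.2 units in fertile testis) overlapped between lines. The genes Vha68-1, Vha68-2 and VhaM8.9 had no probe set under their symbols in the annotation used and are not analysed here.

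Each other paralog was then set against the general gene of the same subunit within each array, as the log2 difference of their probe sets, which largely cancels a scaling of the whole array. In 12 of 13 pairs this difference was higher in sterile than in fertile testis, and in 10 of them the sterile and fertile arrays did not overlap. The shift was largest for Vha16-5, which was tested through the sterile line alone, against Vha16-1 (0.78 on the log2 scale), followed by Vha16-4 (0.58), Vha16-3 (0.53) and Vha16-2 (0.45) against the same gene. For the other subunits it was 0.37 for VhaPPA1-2 against VhaPPA1-1, 0.36 for VhaM9.7-d against VhaM9.7-b, 0.33 for Vha14-2 against Vha14-1 and 0.33 for Vha100-3 against Vha100-2. The arrays overlapped for Vha100-5 against Vha100-2 (0.03), Vha36-3 against Vha36-1 (0.02) and VhaM9.7-c against VhaM9.7-b (-3.1e-05). With 3 arrays per line an exact permutation test cannot go below p = 0.1 (two-sided), and 10 pairs reached that value, 0.13 after Benjamini-Hochberg adjustment over the 13 pairs.

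Such shifts were common. Of all the other 9926 tested testis probe sets, 87.1% lay higher against Vha16-1 in sterile testis without overlap, 75.9% against Vha100-2, 58.9% against VhaPPA1-1, 57.8% against Vha36-1, 61.7% against VhaAC39-1, 42.9% against Vha14-1 and 42.7% against VhaM9.7-b. The 4 pairs with Vha16-1 share that gene and are close to that share. For the other general genes the shares were 42.7% to 75.9%, so pairs without overlap were common there as well. The 10 pairs without overlap are thus not read as a trait of the other paralogs. No such share was computed for the 12 of 13 pairs that were higher. In the abdomen 3 of 12 pairs were higher in the sterile line, and 1 was without overlap: Vha100-4 against Vha100-2, by 0.69 (exact permutation p = 0.1). That is the lowest p this test can give, and it did not pass after adjustment over the 12 pairs. The share of all probe sets was not computed for abdomen.

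**Figure D3:**
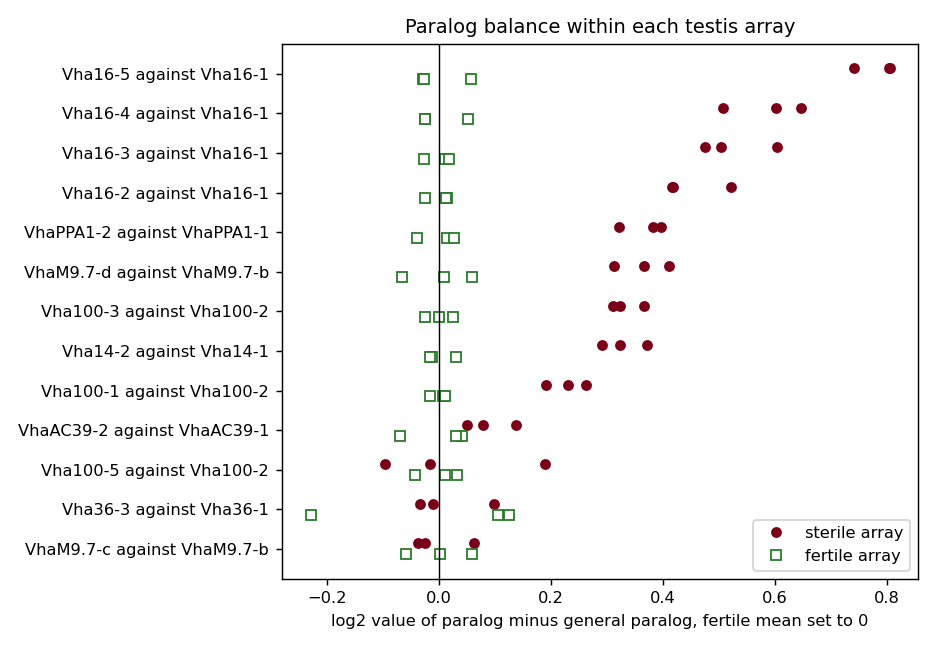
Log2 intensity difference of each other paralog minus the general gene of its subunit within each array (x axis, centred on the mean of the fertile arrays), for 13 pairs in testis, with sterile arrays above fertile arrays in each row and 3 arrays per line. The sterile arrays lie to the right without overlap in 10 pairs, by up to 0.78 for Vha16-5 (tested through the sterile line alone) against Vha16-1. Of all other tested probe sets, 42.7% (against VhaM9.7-b) to 87.1% (against Vha16-1) did so against the same general genes.

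Markers of other tissues that a testis sample could hold were also read, list by list. All 9 tested midgut markers, mostly genes of digestive proteases, were lower in sterile testis, but 7 of them had passed the presence filter through the fertile line alone, so their direction was largely set by that filter. The 11 midgut markers on the array, filtered or not, summed to 1472 to 1537 units in sterile testis, against 16249 to 16501 units in fertile testis. Of these 11, 4 were called absent on all sterile arrays and 0 on all fertile arrays, and the maltase gene Mal-A1 averaged -12.2 units there, below 0, against 240.3 units in fertile testis. Of 7 tested Malpighian tubule markers, 4 were lower and 2 higher, with a median of -0.47 and sums of 5403 to 5605 units in sterile testis, against 7912 to 8118 units in fertile testis. The organic anion transporter gene Oatp58Dc had a log2 fold change of -2.69 and the vitamin transporter gene Smvt one of -1.19, both called lower, whereas Oatp58Da (0.45) and the leucokinin receptor gene Lkr (0.24) were called higher. The part of these cells in the fall of the general pump genes was not tested.

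Other marker lists moved less, and their shares are to be read against the 37.8% of all tested probe sets that were called lower. Of the accessory gland markers 5 of 9 tested were lower and 1 higher (median -0.13), with sums of 42136 to 42648 units in sterile and 45182 to 45497 units in fertile testis. Of the fat body markers 3 of 5 were lower (median -0.13), with sums of 7427 to 7487 units in sterile and 8755 to 8985 units in fertile testis. Of the muscle markers 3 of 7 were lower and 1 higher (median -0.04), with sums of 4271 to 4466 units in sterile and 4683 to 4838 units in fertile testis. With median centring 4 accessory gland markers were lower and 3 higher, 3 fat body markers lower and 0 higher, and 2 muscle markers lower and 2 higher. After quantile normalization these counts were 4 and 1, 3 and 1, and 2 and 2. Of all 9927 tested probe sets, 2941 were lower and 2941 higher with median centring. With quantile normalization 2959 of them were lower and 3028 higher. The part of these tissues in the result was not tested either.

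Genes that work with the pump were described by list. The pump serves lysosomes and endosomes by acidification. Of the lysosome and endosome genes, 10 of 14 tested were lower and 0 higher in sterile testis, with a median of -0.17. Of all tested probe sets, 37.8% were lower and 22.6% higher. Cathepsin D (cathD), an acid protease of lysosomes, averaged 2943 ± 69.3 units in sterile testis and 3676 ± 36.3 units in fertile testis (SD, n = 3 each), a log2 fold change of -0.32 ± 0.02 (limma adjusted p = 2.4e-09). The log2 fold change was -0.38 ± 0.03 for ClC-b, a chloride transporter of endosomes and lysosomes, -0.35 ± 0.03 for the sterol carrier gene Npc2a and -0.19 ± 0.02 for the protease gene CtsF, all called lower. With median centring 9 of the 14 were lower and 1 higher, where 2941 of all 9927 tested probe sets were lower and 2941 higher. After quantile normalization 10 were lower and 1 higher, where 2959 of the 9927 were lower and 3028 higher.

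Of the epithelial ion transport genes, which act beside the plasma membrane pump, 9 of 16 tested were lower and 4 higher, with a median of -0.22, where 37.8% of all tested probe sets were lower and 22.6% higher. The share called higher was thus close to that of all probe sets. The potassium channel gene Irk3, also on the Malpighian tubule list, averaged 257 ± 1.69 units in sterile testis and 565 ± 19.9 units in fertile testis (SD, n = 3 each) and fell by 1.09 ± 0.05 on the log2 scale (limma adjusted p = 4.38e-12). The anion exchanger gene Ndae1 (-0.64 ± 0.05) and the sodium pump subunit genes nrv2 (-0.38 ± 0.03) and nrv1 (-0.34 ± 0.03) were called lower. Of the assembly and signalling partners, 3 of 9 tested were lower and 0 higher on the deposited scale, with a median of -0.06. These were Snx3, a sorting nexin gene (-0.27 ± 0.03), Rbcn-3B, whose product binds the pump and aids its assembly (-0.22 ± 0.05), and Lamtor5, of the lysosomal Ragulator complex (-0.10 ± 0.03). The share called lower was thus close to the 37.8% of all tested probe sets. There were 2 lower and 1 higher after median centring, and 2 lower and 3 higher after quantile normalization. Of all 9927 tested probe sets, 2941 were lower and 2941 higher after median centring. With quantile normalization 2959 of them were lower and 3028 higher. In abdomen 0 of the 9, 14 and 16 tested genes of the signalling, lysosome and transport lists were called.

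**Figure D4:**
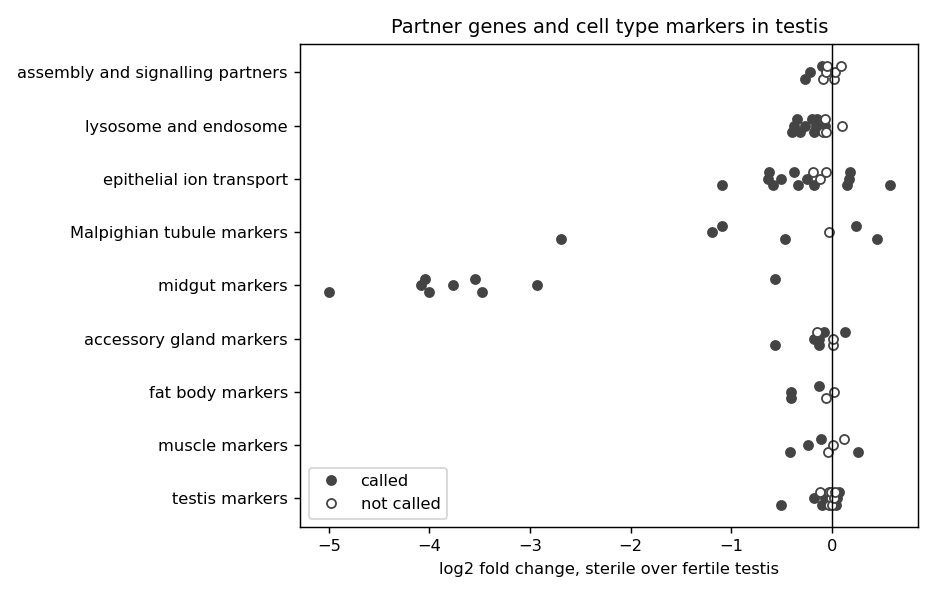
Log2 fold change of sterile over fertile testis (x axis) for each tested gene of the 3 partner lists and the 6 tissue marker lists (rows), with filled points for genes past an adjusted p of 0.05. The midgut markers other than Jon99Ci (-0.56) lie farthest to the left (the positions of those absent on all sterile arrays depend on the added 16). Of the lysosome and endosome genes 10 of 14 were called lower, against 37.8% of all tested probe sets.

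In abdomen, 0 of 28 tested members were called by limma, where 0.544% of the 6983 tested probe sets were. At an unadjusted p under 0.05 there were 3 members, against 8.12% of all tested probe sets. Positive fold changes outnumbered negative ones, 19 against 9, with a median of 0.07 among the members and 0.01 among all tested probe sets. Of the 14 general probe sets 11 were positive, with a median of 0.10 and a range of -0.09 to 0.34. The 13 other paralogs ranged from -0.68 to 0.73 with a median of 0.01. In 6 of the 28 members the sterile arrays lay above the fertile ones without overlap, and in 0 below. Among all tested probe sets 14.1% did not overlap in either direction. For Vha100-2 the 95% interval of the log2 fold change ran from -0.27 to 0.36. It includes the median of the general probe sets in testis (-0.20) but not its own testis value (-0.36). The intervals of Vha44, Vha26, Vha13, Vha55, Vha14-1 and the brighter VhaPPA1-1 probe set began above -0.20. Their lower ends, before adjustment, were -0.19, -0.08, -0.07, -0.003, 0.01 and 0.02 in that order. The intervals of the remaining general probe sets included -0.20. The 17 testis markers summed to 93723 to 121638 units in sterile and 98462 to 132116 units in fertile abdomen, but their levels were uneven. Only 11 reached the level filter, and 0 were called. Mst84Da averaged 24268 units in sterile and 24818 units in fertile abdomen, whereas betaTub85D averaged 360 and 499 units. The midgut markers summed to 297123 to 404966 units in sterile and 297438 to 377367 units in fertile abdomen, with a median log2 fold change of 0.05. Of 11 tested, 1 was called higher (Jon25Biii, 2.07) and 0 lower. The Malpighian tubule markers summed to 3983 to 5805 units in sterile and 5636 to 7417 units in fertile abdomen, with 0 of 6 called. Oatp58Dc had a log2 fold change of -2.75 ± 0.51 in abdomen (limma adjusted p = 0.0669) and Irk3 one of -1.08 ± 0.49 (limma adjusted p = 0.619), beside their testis values of -2.69 and -1.09.

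The catalytic ring gene Vha55 had 6360, 7852 and 6052 units in sterile abdomen, against 5944, 5313 and 4947 units in fertile abdomen, a log2 fold change of 0.32 ± 0.14 (limma adjusted p = 0.619). VhaPPA1-1 had 3626, 3786 and 3239.6 units in sterile abdomen, against 2770.3, 3027 and 2736 units in fertile abdomen, a log2 fold change of 0.32 ± 0.13 (limma adjusted p = 0.568). Its other abdomen probe set, with overlapping lines, gave 0.03. In both genes the sterile arrays were higher without overlap, and the differences did not pass the test.

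Vha14-1 had 3380, 4203 and 4567 units in sterile abdomen, against 3163, 3281 and 3055 units in fertile abdomen (0.34 ± 0.15, limma adjusted p = 0.595). Vha100-4, a subunit a isoform that was not tested in testis, had 765, 1041 and 722 units in sterile abdomen, against 399.7, 661 and 456 units in fertile abdomen. Its log2 fold change was 0.73 ± 0.25 (limma adjusted p = 0.41), with a 95% interval of 0.18 to 1.29 before adjustment. The sterile arrays were higher without overlap in both genes. Vha26 and Vha13 were the other members without overlap. Vha16-1, the member with the largest fall in testis, had 14744, 13597 and 12367 units in sterile abdomen, against 16776, 9352 and 12729 units in fertile abdomen, and the lines overlapped (0.10 ± 0.19). VhaAC45RP, which was too dim to be tested, had 83.5, 235 and 65.4 units in sterile abdomen, against 318, 284 and 438 units in fertile abdomen.

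Whether the fold change differed between tissues was tested on the 4709 genes measured in both, as the testis log2 fold change minus the abdomen log2 fold change. Of the 23 pump genes, 2 were called, where 3.82% of all these genes were. For Vha55 the difference was -0.65 ± 0.14 (limma adjusted p = 0.011) and for VhaPPA1-1 it was -0.51 ± 0.13 (limma adjusted p = 0.0394). In both, sterile arrays lay below fertile arrays in testis and above them in abdomen. For VhaPPA1-1 this holds for the brighter abdomen probe set, which the fit used. The other abdomen probe set gave 0.03 with overlapping lines. The VhaPPA1-1 call was lost in 10 of 19 alternatives, among them median centring (limma adjusted p = 0.0899), quantile normalization (limma adjusted p = 0.0925) and leaving out 1 of 7 arrays (limma adjusted p up to 0.143, without sterile abdomen array A). The Vha55 call was lost in 3 of 19, which were the fit with no intensity trend (limma adjusted p = 0.0636) and those without sterile abdomen array B (limma adjusted p = 0.0612) or fertile abdomen array C (limma adjusted p = 0.0624).

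All 12 general genes had a negative difference, from -0.65 to -0.13, and so did 5 of 10 other paralogs, which ranged from -0.34 to 0.35. The share of negative differences among all 4709 genes was not computed. Fold changes were negative in 5794 of all 9927 tested probe sets in testis and in 3421 of 6983 in abdomen. Vha16-1 had -0.59 ± 0.17 (limma adjusted p = 0.0597), which passed with the replicate letter as a block (limma adjusted p = 0.0178). Vha14-1 (-0.45 ± 0.15), Vha44 (-0.44 ± 0.16), Vha100-2 (-0.40 ± 0.17) and Vha26 (-0.38 ± 0.13) did not pass, though Vha26 did with equal weights for the tissues (limma adjusted p = 0.0468). These 5 and the 2 called genes were the 7 with an unadjusted p under 0.05. VhaPPA1-2 had the largest positive difference, 0.35 ± 0.28 (limma adjusted p = 0.617).

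**Figure D5:**
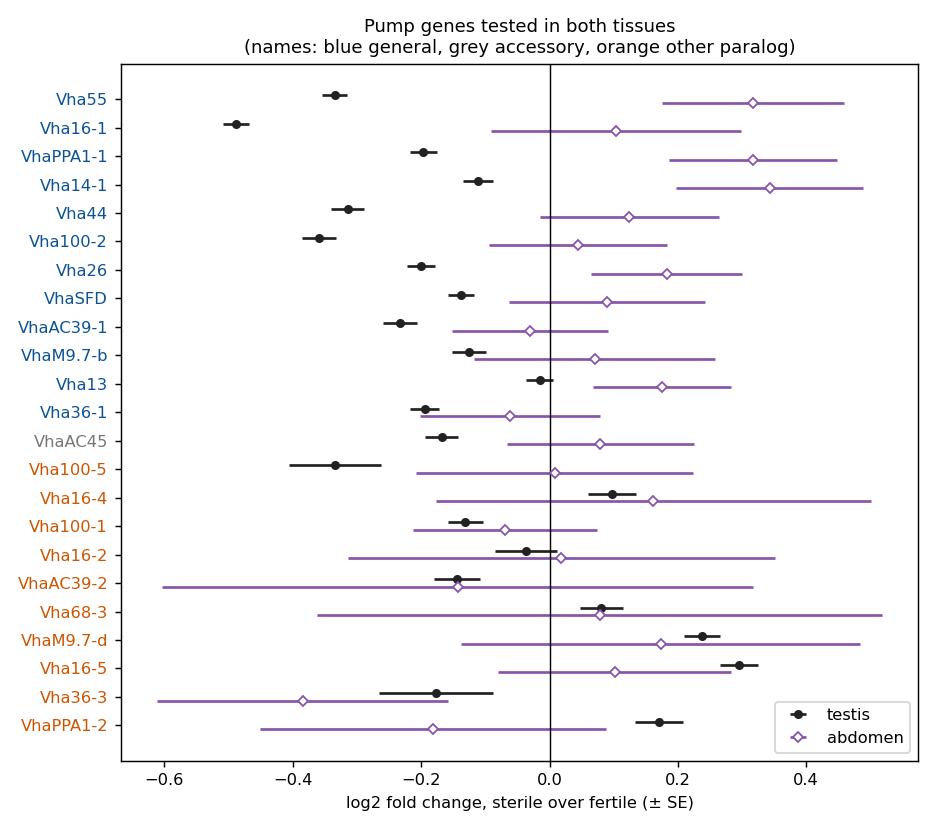
Log2 fold change of sterile over fertile (x axis) in testis (filled) and abdomen (open), as fitted value ± standard error from 3 arrays per line and tissue, for the 23 pump genes tested in both (y axis). In Vha55 and VhaPPA1-1, whose difference between tissues passed an adjusted p of 0.05, the testis value is below 0 and the abdomen value above it, and the abdomen errors are wider throughout. VhaPPA1-1 is shown by its brighter abdomen probe set, and the other gave 0.03.

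The authors' deposited table of testis comparisons marked 4 of the 32 Vha probe sets among 1233 marked in all. It gave fold scores of fertile over sterile, the opposite direction to the fold changes above, of 1.58 and 1.4 for the 2 probe sets of Vha16-1, 1.28 for Vha100-2 and 1.26 for Vha55. In the authors' deposited table Vha16-5 had a score of -1.23 and VhaM9.7-d one of -1.18, both without a mark, and the smallest absolute score with a mark was 1.24.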

How the data were processed

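Testis and abdomen RNA of sterile and fertile introgression males was read on Affymetrix arrays of 2 designs, 1 per tissue, both made for D. melanogaster; D. simulans mismatches were not corrected for. The deposited intensities are on a linear scale. The submitters' processing notes name MAS5, but 26 to 37 testis intensities per array are below 0, so how the authors made the testis values is not given in the sources used here. The authors' testis table holds, per the file headers, each line's percent of arrays called present (used as filter), a signed fold score, p-values and a mark; its 12 columns of values per array match samples of both tissues by name and were not used. Which of its columns is which line follows from the mean intensity deposited there, within 2 percent or 2 units of the fertile mean for 99.7% of probe sets.

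Intensities below 0 were set to 0 and log2(intensity + 16) was taken. Tests covered testis probe sets called present on every array of one line or of both (9927) and abdomen probe sets at or above the median level (6983). Each tissue was fitted with limma 3.58.1 in R 4.3.3 (intensity trend, Benjamini-Hochberg adjustment over the tissue). The difference between tissues was fitted on 4709 genes with a weight per tissue, since the tables were normalized separately. No level was compared across designs. The fits were also run on simulated data with 200 changed genes. They missed most changes of 0.1 and 0.2 on the log2 scale in testis and most changes of every size tried in abdomen. In the real testis data 60.4% of the probe sets were called, and the adjusted p depends on that share. The simulated recovery in testis therefore cannot be carried over to these data. An uncalled member may still differ between the lines. The number of arrays limits the precision.

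Members, lists and pairs were chosen with earlier results of these data known. Values on each array are given for members called with an absolute log2 fold change of at least 0.3 in testis, called in abdomen or in the difference between tissues; at most 4 called genes per partner list with the smallest p are named. Genes of a list are represented by their brightest probe set. Symbols come from the platform annotation (13647 testis and 12443 abdomen probe sets with 1 symbol, 402 and 327 with several, 4720 and 1196 with none). Probe sets ending in _s_at or _a_at may detect several transcripts. Deviations of arrays sharing a replicate letter correlated at 0.15, 0.29 and 0.26 in abdomen, and at -0.07, 0.15 and 0.05 in testis. This was taken as a pairing seen in the data in abdomen but not in testis. The main fits of both tissues left the letter out, and it entered only as a block among the alternatives. Alternatives were median centring, quantile normalization, added constants of 4 and 64, other filters, no intensity trend, equal weights, a replicate block and leaving out each array.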

Additional observations from a re-analysis of the deposited data

Results flagged for a closer look

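Differences of effect between the tissues drew attention to 4 general pump genes. The difference, as the testis log2 fold change (sterile over fertile) less the abdomen one, was -0.65 for Vha55 and -0.51 for VhaPPA1-1, and both passed limma's test of the difference. The VhaPPA1-1 value rests on its brighter abdomen probe set, and the other gave an abdomen log2 fold change of 0.03. For Vha14-1 it was -0.45 and for Vha26 -0.38. In these 2 genes every sterile array lay below every fertile array in testis and above every fertile array in abdomen, but the tested difference did not pass (limma adjusted p = 0.122 and 0.119).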

How the results depend on the processing

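All 12 general testis calls and the VhaAC45 call kept their direction and passed under all 14 alternatives, as did 4 of 6 higher and 2 of 4 lower calls of other paralogs (13 alternatives for Vha100-5). The counts ran from 4 to 7 higher and 15 to 19 lower, and leaving out each array gave 4 to 6 higher and 16 to 17 lower. The abdomen count was 0 under every alternative run, which says nothing of stability, since changes of the size measured in testis were mostly within the error of the abdomen arrays. With a replicate block, the testis counts were 6 higher and 18 lower, the abdomen count 0 and the count for the difference between tissues 3; beside Vha16-1 in that difference, the block changed the call of Vha36-3 in testis (limma adjusted p = 0.0414), and no other. The difference between tissues rested on few arrays. Its count of 2 became 1 with median centring and 0 without an intensity trend, and it ran from 0 to 2 when single arrays were left out, with 0 without sterile abdomen array B or fertile abdomen array C and 1 without sterile abdomen array A, fertile abdomen array B, sterile testis array C or fertile testis array B. Uncalled members near 0 changed sign: with median centring Vha100-3 gave 0.019, Vha16-2 0.0089 and Vha13 0.030, and with quantile normalization Vha100-3 gave 0.040, Vha16-2 0.025 and Vha13 0.021. Leaving out arrays, Vha100-3 ranged from -0.047 to 0.00039 in testis, and in abdomen Vha100-2 ranged from -0.041 to 0.14, VhaPPA1-2 from -0.38 to 0.13 and Vha16-1 from -0.11 to 0.31. The cause was not tested. Quantile normalization also called Vha16-3 higher (limma adjusted p = 0.00825). The array spread of the abdomen limits what could be detected there.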
